A study of Rattus norvegicus with 36 samples.

Results

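The 2528 regions described here are stretches of the rat genome that were listed as bound by phosphorylated CREB (pCREB) in the hippocampus of trained rats and not of untrained rats. They make up 24.2% of the 10465 pCREB regions on chromosomes 1 to 20 and X that overlapped no region of the glucocorticoid receptor (GR). The whole series lists 14722 pCREB regions and 5307 GR regions, 20029 in all. A region belonged to the list when a peak had been called in at least 3 of the 4 pCREB libraries of a trained group and in fewer than 3 of the 4 in each untrained group. The regions were thus chosen by peak calls in these libraries, and every difference between trained and untrained libraries below describes the choice and was not tested.

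The series used chromatin immunoprecipitation and sequencing (ChIP-seq) to study GR and pCREB in memory formation under glucocorticoids. The animals were male Sprague-Dawley rats, which carried no named transgene or mutation in the labels. They fell into 4 groups: untrained rats given vehicle, untrained rats given corticosterone, trained rats given vehicle and trained rats given corticosterone. The labels name no age, dose, time or training task. Each group had 4 pCREB libraries, named A to D, and a pool of 4 hippocampi from 2 rats went into each. A library is therefore an average over 2 animals and over all cell types of the hippocampus, and more cells with a bound site cannot be told apart from more binding per cell. The groups lay on lanes 5, 6, 7 and 8 of the sequencer in the order given above, so that group and lane cannot be told apart.

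CREB is a transcription factor that sits on promoters and enhancers and is switched on when kinases phosphorylate it after synaptic activity, calcium entry or cyclic AMP. Phosphorylated CREB recruits the coactivators CBP and p300, and its target genes include many immediate early genes of neurons. In the hippocampus CREB is known for its part in the formation of long-term memory. GR is a receptor through which corticosterone, the main glucocorticoid of rats, acts on chromatin. The regions here were chosen to lie outside the listed GR sites.

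The pCREB libraries held 143219 to 562249 reads in pCREB regions (mean 418443 ± 124058, SD, n = 16). Untrained vehicle A and trained corticosterone A stood apart, with 1495 and 1169 of the 14722 regions called as peaks against 7083 to 12882 in the other 14 libraries. They also held the fewest reads in pCREB regions, 226220 and 143219. Mitochondrial regions took 8.65% and 7.91% of their reads and 2.05% to 4.79% of those of the other libraries. Their part in the list is given beside the results that rest on them.

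The list was made of regions that were called more often in trained rats, and few of them lacked calls in untrained rats. Of the 2528 regions, 134 (5.30%) had no call in any of the 8 untrained libraries. A total of 356 had 1 untrained call, 669 had 2, 847 had 3 and 522 had 4. At least 1 untrained group had exactly 2 calls, 1 short of leaving the list, in 1678 regions (66.4%). Untrained vehicle A called only 25 regions of the list, so that the calls in untrained vehicle rats came almost wholly from B, C and D. The median region had 3 calls in untrained and 5 calls in trained libraries, whereas the median over all pCREB-only regions was 5 in both. In 223 regions the untrained calls equalled the trained calls, and in 25 they outnumbered them, since calls were counted by group and not over all 8 libraries.

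Most of the regions entered the list through 1 trained group. Trained vehicle rats alone brought in 1474 regions (58.3%), trained corticosterone rats alone 780 (30.9%), and both groups 274 (10.8%). All 4 trained vehicle libraries were called in 190 regions and all 4 trained corticosterone libraries in 13. No region was called in all 8 trained libraries, and 54 were called in 7. Of the 1054 regions listed through trained corticosterone rats, 1019 had no call in library A, so that these rested on libraries B, C and D.

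**Figure D1:**
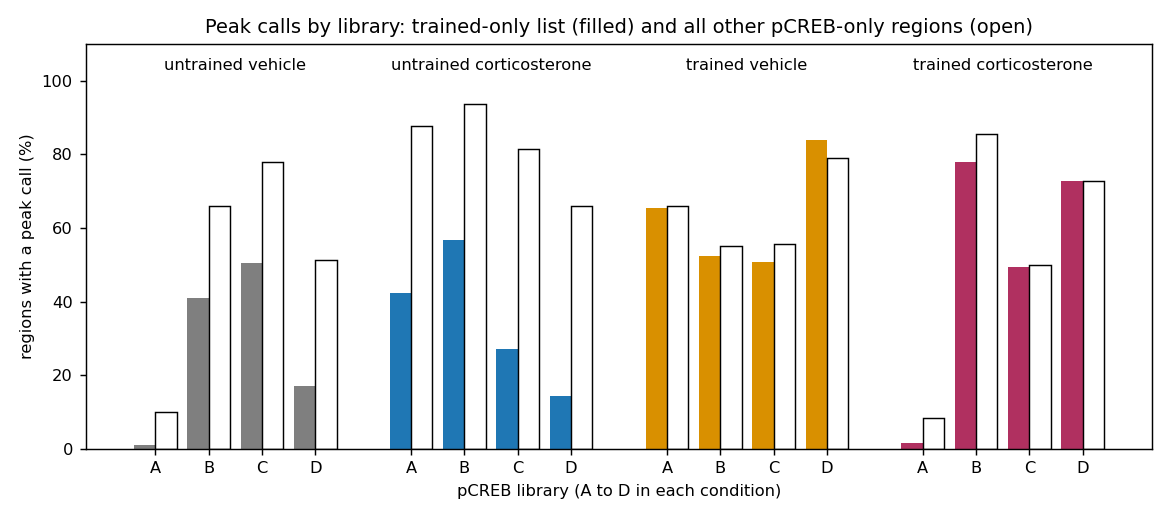
Share of regions with a peak call in each pCREB library (y axis, percent), for the 2528 regions listed only in trained rats (filled bars) and for all other pCREB-only regions (open bars). Library A of untrained vehicle and of trained corticosterone rats called 0.989% and 1.5% of the list, while the other untrained libraries called 14.2% to 56.7% of it and the other trained libraries 49.4% to 83.9%.

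The plot of calls by library shows how far single libraries carried the list. In untrained vehicle rats, 25, 1037, 1276 and 431 of the regions were called in libraries A to D, and in untrained corticosterone rats 1072, 1434, 688 and 360. In trained vehicle rats the calls numbered 1655, 1323, 1282 and 2122, and in trained corticosterone rats 38, 1973, 1248 and 1842. Untrained corticosterone B thus called more of the list than trained vehicle B and C and trained corticosterone C did.

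The reads at these regions differed far less between libraries than the calls did. Of all reads in pCREB regions, the list took 9.94%, 10.2%, 10.1% and 9.85% in untrained vehicle A to D, and 9.88%, 9.97%, 9.55% and 9.57% in untrained corticosterone A to D. It took 10.7%, 10.8%, 10.8% and 11.0% in trained vehicle A to D, and 9.29%, 10.6%, 11.0% and 11.0% in trained corticosterone A to D. Every trained library but trained corticosterone A lay above all 8 untrained libraries, and that library lay below them all. The mean share was 9.88% ± 0.234 in untrained and 10.6% ± 0.564 in trained libraries (SD, n = 8 each). Without the mitochondrial reads in the total, the means were 10.3% ± 0.305 and 11.1% ± 0.411, and trained corticosterone A, at 10.1%, lay within the untrained range of 9.91% to 10.9%. The 2741 pCREB-only regions listed only in untrained rats went the other way, with 11.3% ± 0.505 in untrained and 10.3% ± 0.582 in trained libraries.

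**Figure D2:**
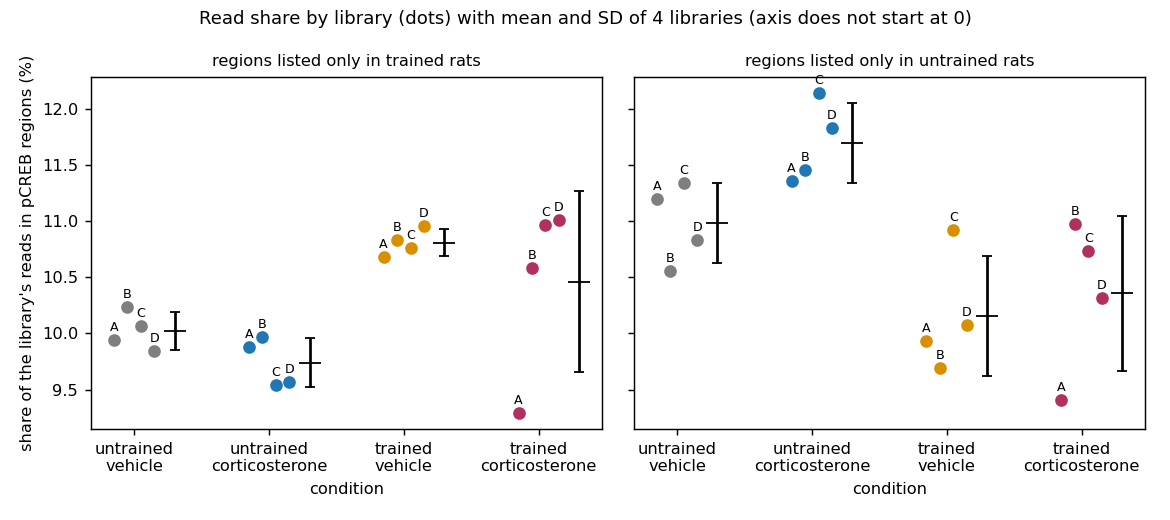
Share of each library's pCREB-region reads that fell in the regions listed only in trained rats (left) and only in untrained rats (right), in percent, with dots for libraries A to D and bars for the mean and SD of 4 libraries. In the left panel the trained vehicle libraries sit at 10.7% to 11.0% and the untrained libraries at 9.55% to 10.2%; trained corticosterone A is lowest at 9.29%.

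A missing call did not mean missing reads. Input libraries were not used, so that reads at an uncalled region cannot be told apart from background. Normalized counts are given as CPM, edgeR's counts relative to the library's reads in the tested pCREB regions after scaling by trimmed means of M values (TMM). Where a region of the list was called in an untrained library its median was 42.5 CPM (quartiles 32.7 and 60.6, 6245 pairs of region and library), and where it was not called its median was 28.0 CPM (20.2 and 40.7, 13347 pairs). In trained libraries the same medians were 41.6 CPM (32.5 and 58.3, 11210 pairs) and 26.0 CPM (18.3 and 38.9, 8382 pairs). The ranges between the quartiles of called and uncalled pairs overlapped in both states of training.

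At 14553 of the 14722 pCREB regions, among them 2449 of the list, counts were high enough for a fit across regions (edgeR, quasi-likelihood). The 79 regions left out were narrow, with a median width of 231 bp and 37 to 130 reads over the 16 libraries. Averaged over treatments, the median log2 fold change of the 2449 regions between trained and untrained rats was 0.14, a 1.10-fold difference, with a median standard error of 0.245 for a single region. It was above 0 in 1847 regions (75.4%) and below 0 in 602, against 53.9% above 0 among all tested regions, whose median was 0.02. In 57 regions (2.33%) trained rats were over 1.5-fold higher, in 3 over 1.5-fold lower, and in 2 over 2-fold higher. Among all 14553 tested regions these counts were 80 (0.55%), 107 and 10 in the same order. These values describe what the calls had selected. Regions listed only in untrained rats had a median of -0.12, and regions with 3 or more calls in every group had one of 0.07.

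With that contrast, no tested region passed an adjusted p of 0.05 in edgeR (0 of 14553, a background of 0%), so that none of the list did either. At an unadjusted p of 0.05 the count was 122 of the list, 118 of them higher in trained rats, against a background of 2.87%, and nothing is read from that difference, since the calls had chosen the regions. The count was 127 (5.19%, background 3.13%) within vehicle rats and 143 (5.84%, background 3.11%) within corticosterone rats, with 0 called after adjustment in either. DESeq2 called 2 regions for the average over treatments, neither of them on the list.

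**Figure D3:**
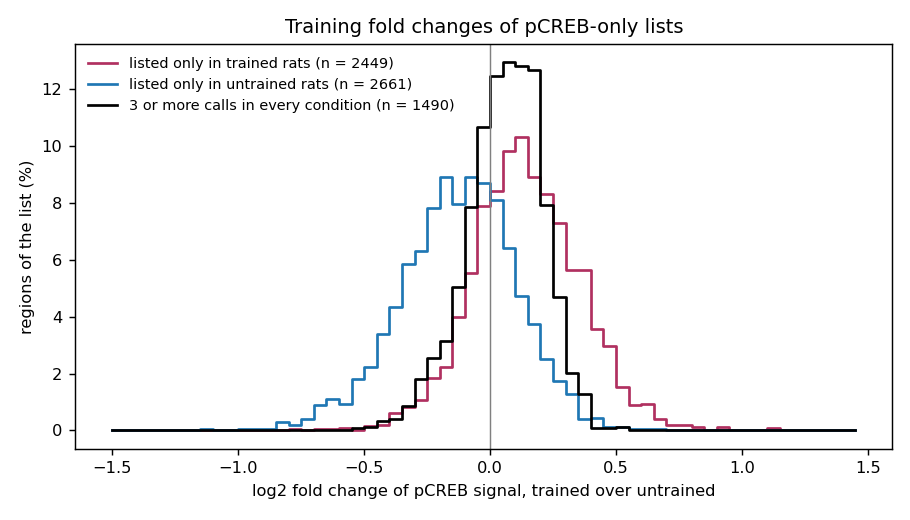
Distribution of log2 fold changes of pCREB signal between trained and untrained rats (x axis), as the percent of each list in bins (y axis), for regions listed only in trained rats, only in untrained rats, and with 3 or more calls in every group. The 3 curves overlap widely, with medians of 0.14, -0.12 and 0.07.

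The fewer calls a region had in untrained rats, the larger its fold change and the lower its signal. The median log2 fold change for training was 0.28 in regions with no untrained call, 0.25 with 1, 0.17 with 2, 0.10 with 3 and 0.08 with 4. The median signal was 24.6 CPM at the first of these steps and 41.9 CPM at the last. At the limit of the rule, the 1662 tested regions with 2 calls in the higher untrained group had a median log2 fold change of 0.11 and a median signal of 36.5 CPM. The 2428 tested regions just outside, with 3 calls there, had 0.06 and 46.8 CPM. The limit for trained rats has no regions just outside it, since the deposited list holds only regions with 3 calls in some group.

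No region of the list had all 8 trained libraries above all 8 untrained libraries, and none of the 14553 tested regions did (0%). Within vehicle rats, the 4 trained libraries lay above the 4 untrained ones in 37 regions of the list (1.51%), against 0.632% of all tested regions, and the reverse held in 14, against 0.948%. Within corticosterone rats the counts were 73 (2.98%, against 1.2%) and 7 (against 1.32%). These counts, too, are of the contrast that chose the list.

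The 10 regions named next had the largest number of trained minus untrained calls, and their reads followed the calls at some and not at others. At chr17:54920644-54921335, a region of 691 bp with 7 trained calls and no untrained call, untrained vehicle A to D held 59.4, 37.1, 57.3 and 54.1 CPM and untrained corticosterone A to D 46.0, 53.3, 69.0 and 76.3 CPM. Trained vehicle A to D held 60.6, 47.4, 61.1 and 58.0 CPM and trained corticosterone A to D 71.8, 59.3, 77.6 and 54.8 CPM. The untrained and trained libraries covered nearly the same range, with means of 56.6 ± 12.3 and 61.3 ± 9.46 CPM (SD, n = 8 each). The 2 libraries with the highest untrained signal, untrained corticosterone C and D, had no call there although they exceeded most trained libraries.

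The region chr10:107329857-107330207, 350 bp wide, had 6 trained calls and no untrained call, and here the reads differed along with the calls. Untrained vehicle A to D held 41.1, 26.2, 26.6 and 16.2 CPM and untrained corticosterone A to D 20.2, 12.9, 34.5 and 20.4 CPM. Trained vehicle A to D held 28.4, 35.5, 44.4 and 44.1 CPM and trained corticosterone A to D 55.8, 43.6, 36.0 and 36.6 CPM. Untrained vehicle A and untrained corticosterone C overlapped the trained libraries, and the other 6 untrained libraries lay below all trained ones. Untrained rats had a mean of 24.8 ± 9.44 CPM and trained rats one of 40.6 ± 8.27 CPM, a 1.65-fold difference, on 6 to 25 reads a library.

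The region chr11:12994246-12994518, 272 bp wide, was the weakest of the 10, with 1 to 15 reads a library. Its signal was 4.57, 21.8, 10.2 and 8.11 CPM in untrained vehicle A to D and 14.7, 16.5, 21.2 and 12.7 CPM in untrained corticosterone A to D. It was 24.6, 14.2, 24.98 and 34.8 CPM in trained vehicle A to D and 39.9, 24.4, 19.4 and 18.3 CPM in trained corticosterone A to D. Untrained means were 13.7 ± 6.09 CPM and trained means 25.1 ± 8.54 CPM, with overlap between single libraries.

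At chr1:177964753-177965076 trained vehicle rats had 38.7 ± 5.56 CPM and the other 3 groups 24.6 to 27.0 CPM. At chr2:188157976-188158249 they had 35.0 ± 9.93 CPM and the other groups 17.5 to 21.6 CPM. The regions chr11:32909576-32909961 and chr9:119471273-119471602 had 21.8 ± 6.53 and 21.2 ± 5.45 CPM in untrained vehicle and 41.2 ± 7.95 and 35.4 ± 13.1 CPM in trained vehicle rats, with untrained corticosterone rats between, at 31.1 and 31.0 CPM. At chr1:177443328-177444056 untrained rats had 46.1 ± 14.2 CPM and trained rats 49.4 ± 8.93 CPM, a difference within the spread. At chr1:24095957-24096432 the means were 38.9 ± 10.6 and 49.7 ± 14.3 CPM.

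The remaining region of the 10, chr9:93377097-93378259, is 1162 bp wide and followed single libraries. It held 100.5, 142, 92.1 and 122 CPM in untrained vehicle A to D and 63.7 to 127 CPM in the untrained corticosterone libraries. In trained vehicle A to D it held 171, 322, 77.7 and 128 CPM, and in trained corticosterone A to D 168, 83.7, 49.9 and 148 CPM. Trained vehicle B was the highest library by a wide margin, and trained corticosterone C was the lowest of all 16.

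Narrow and wide regions of the list did not vary together across libraries. The regions spanned 180 to 1943 bp, with a median of 388 bp (quartiles 311 and 524), against 443 bp for all pCREB-only regions, 374 bp for those listed only in untrained rats and 686 bp for those with 3 or more calls in every group. There were 1349 regions of 400 bp or less, 749 of over 400 and up to 600 bp, 358 of over 600 and up to 1000 bp and 72 of over 1000 bp. The 72 widest took 1.46% of the reads of trained vehicle B and 0.554% of those of trained corticosterone C, a ratio of 2.63, while the 1349 narrowest took 2.68% and 4.83% in the same libraries.

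**Figure D4:**
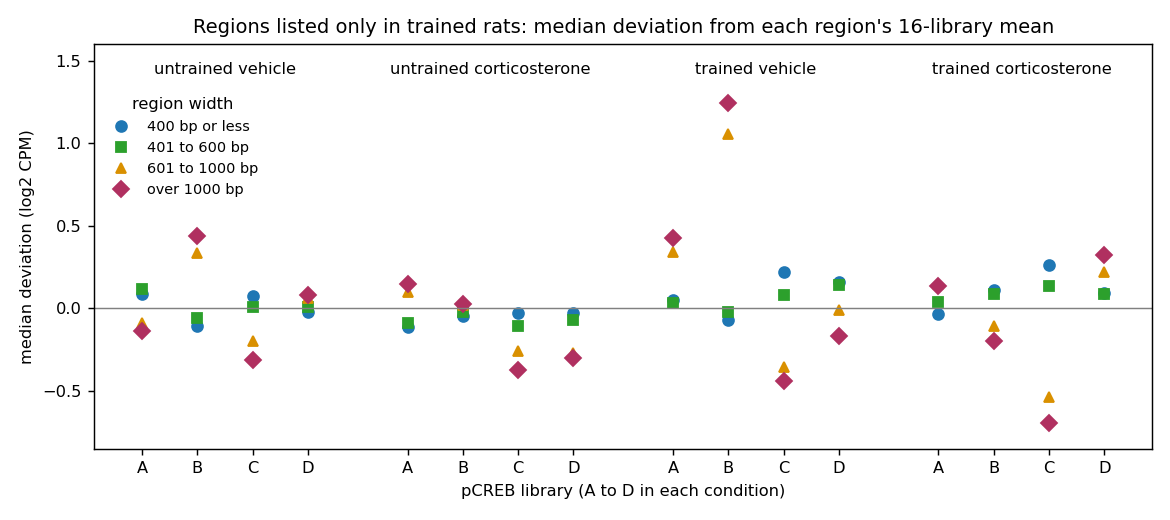
Median deviation of a region's log2 CPM from its own mean over 16 libraries (y axis), in each pCREB library (x axis), for 4 width classes of the regions listed only in trained rats. Regions over 1000 bp reach 1.25 in trained vehicle B and -0.70 in trained corticosterone C, while those of 400 bp or less stay between -0.11 and 0.26.

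The plot by width shows that libraries of the same group differed at regions over 600 bp, most in trained vehicle and least in untrained corticosterone rats. Over the list, the reads in regions over 600 bp divided by those in regions of 400 bp or less came to 0.776, 1.25, 0.733 and 0.977 in untrained vehicle A to D and 1.10, 0.952, 0.756 and 0.755 in untrained corticosterone A to D. They came to 1.16, 1.94, 0.607 and 0.774 in trained vehicle A to D and 0.990, 0.765, 0.531 and 1.02 in trained corticosterone A to D. Trained vehicle B was the highest and trained corticosterone C the lowest of the 16. The same 2 libraries were the extremes among pCREB regions of the other lists, where the ratio ran from 0.477 to 1.62 for regions listed only in untrained rats and from 12.7 to 33.7 for those with 3 or more calls in every group.

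The training difference of wide regions rested on trained vehicle B within vehicle rats and in the average over treatments. Among the 430 tested regions over 600 bp, the median log2 fold change between trained and untrained vehicle rats was 0.34 with all libraries, -0.02 without trained vehicle B and 0.53 without trained vehicle C. Averaged over treatments it was 0.17, 0.004 without trained vehicle B and 0.26 without trained vehicle C. Within corticosterone rats the median of the wide regions was 0.06 and depended on other libraries. It was -0.10 without trained corticosterone D, -0.001 without untrained corticosterone D and 0.18 without trained corticosterone C. For the 1270 tested regions of 400 bp or less the median averaged over treatments was 0.12, and 0.14 over the 1291 tested without trained vehicle B. The narrow regions of the list thus kept the sign of their median without that library, and the wide ones in vehicle rats did not.

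The 6 regions with the highest signal were all wide and showed this pattern one by one. The strongest, chr9:93543726-93545187, is 1461 bp wide and had 3 untrained and 5 trained calls. It held 128, 275, 90.02 and 154 CPM in untrained vehicle A to D and 195, 219, 127 and 120 CPM in untrained corticosterone A to D. It held 271, 476, 86.0 and 162 CPM in trained vehicle A to D and 255, 150, 74.8 and 201 CPM in trained corticosterone A to D. Trained vehicle B was highest and trained corticosterone C lowest, and every group overlapped every other.

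The other 5, chr7:11754154-11755302, chr6:99400432-99402375, chr1:266254343-266256111, chr3:72118105-72119382 and chr1:221158647-221160068, are 1148 to 1943 bp wide. Trained vehicle B was the highest library in each, at 336 to 398 CPM. Their log2 fold changes for training were 0.09 to 0.34, with standard errors of 0.269 to 0.279. Without trained vehicle B, those of chr7:11754154-11755302, chr6:99400432-99402375, chr3:72118105-72119382 and chr1:221158647-221160068 were -0.17, -0.05, -0.08 and -0.01, and those of chr7:11754154-11755302 and chr3:72118105-72119382 were also below 0 without trained corticosterone D, at -0.04 and -0.006. The region chr6:99400432-99402375 is the widest of the list, and its means of 159 ± 49.95 CPM in untrained rats and 181 ± 93.5 CPM in trained rats differed by less than the spread between libraries (SD, n = 8 each).

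The rule asked the same of vehicle and corticosterone libraries, but the trained libraries whose calls made the list are part of the average corticosterone contrast, so that only the test of single regions over the whole table is given as a test. Averaged over trained and untrained rats, corticosterone rats had slightly less signal than vehicle rats, with a median log2 fold change of -0.07 over the 2449 regions against 0.00 (-0.003) over all tested regions. It was above 0 in 971 regions and below 0 in 1478, and it followed the listing: the median was -0.21 in the 1430 regions listed through trained vehicle rats alone, 0.16 in the 745 listed through trained corticosterone rats alone and 0.01 in the 274 listed through both. Under scaling by total count the medians were 0.02 for the list and 0.08 for all tested regions, so that the sign of the list's median depended on the scaling. The list's median minus that of all tested regions was -0.08 to -0.05 over all alternatives. No region passed an adjusted p of 0.05 (edgeR, 0 of 2449 on the list and 0 of 14553 in all, a background of 0%), and the smallest adjusted p on the list was 0.84. At an unadjusted p of 0.05 edgeR gave 170 regions (6.94%), 50 higher and 120 lower, against a background of 4.87% of all tested regions. DESeq2 called none. The count depended on single libraries, on the list and over all tested regions alike. It was 100 of 444 such regions in all without trained vehicle B, 105 of 444 without untrained vehicle B, 111 of 476 without trained corticosterone C and 355 of 1567 without trained vehicle C, against 170 of 709 with all libraries. As the calls fed this contrast, nothing is read from the list's larger share. No region of the list had all 8 corticosterone libraries above all 8 vehicle libraries (0.00687% of all tested regions) or below them (0%).

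In untrained rats, where the list needs few calls in both groups, the median corticosterone effect was -0.10 against -0.02 for all tested regions. It was 0.08 in regions listed only in untrained rats. The rule used the calls of both groups, and not evenly. Untrained vehicle A called 812 of all pCREB-only regions, against 5600 to 8879 in untrained corticosterone A to D. This contrast was thus partly used by the rule as well, and nothing is read from the list's median or the counts below. Again no region passed in edgeR or DESeq2 (background 0%), and 61 regions (2.49%), 16 higher and 45 lower, had an unadjusted p under 0.05, against a background of 2.69%. The share on the list was thus close to the background. The 4 untrained corticosterone libraries lay above the 4 untrained vehicle libraries in 9 regions (0.367%, against 1.44% of all tested regions) and below them in 27 (1.1%, against 0.941%).

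In trained rats the corticosterone effect depends on how a region entered the list, and this contrast was partly used by the rule. The 745 tested regions listed through corticosterone rats alone had a median log2 fold change of 0.39, the 1430 listed through vehicle rats alone one of -0.32, and the 274 listed through both one of 0.13. These 3 medians describe the calls and are not a test. Over the whole list the median was -0.06, and 0.05 under scaling by total count, which moved the median of all tested regions from -0.003 to 0.10. A total of 270 regions (11%), 112 higher and 158 lower, had an unadjusted p under 0.05 in edgeR, against a background of 5.94%. None passed after adjustment in edgeR or DESeq2 (background 0%), and the smallest adjusted p on the list was 0.78. The 270 were part of 865 such regions in all. Without trained corticosterone C they were 132 of 452, without trained vehicle B 144 of 448 and without trained vehicle C 535 of 2127, so that the count over all regions changed in the same direction as that of the list. In untrained rats the medians of the 3 subsets were -0.08, -0.10 and -0.14 in the same order.

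The subsets also differed in where their training difference lay, again as a description of the calls. Regions listed through corticosterone rats alone had a median log2 fold change for training of 0.34 within corticosterone rats and -0.11 within vehicle rats. Regions listed through vehicle rats alone had 0.26 within vehicle rats and 0.03 within corticosterone rats. Only 10.8% of the list was called often enough in both trained groups, and these 274 regions had 0.31 within corticosterone rats and 0.07 within vehicle rats.

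Wide regions had lower signal in corticosterone than in vehicle rats when trained, and its size depended on single libraries. The median log2 fold change of the 430 regions over 600 bp in trained rats was -0.45, without trained vehicle B it was -0.08, and without trained corticosterone C, or with scaling by total count, it was -0.29. Other pCREB-only regions of that width were lower too, with medians of -0.34 over 600 and up to 1000 bp and -0.45 over 1000 bp, against -0.42 and -0.51 on the list. Narrow regions of 400 bp or less had a median of 0.05 with all libraries, 0.01 without trained vehicle B and -0.01 without trained corticosterone C. In untrained rats, the medians were -0.16 for wide and -0.08 for narrow regions, and these too depended on single libraries. In the same order they were -0.003 and -0.11 without untrained vehicle B and -0.24 and -0.04 without untrained vehicle C. Under scaling by total count they were -0.09 and -0.009.

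The test of whether training changed the corticosterone effect (the interaction) passed for no region in edgeR or DESeq2 (background 0%), with a smallest adjusted p on the list of 0.999. A total of 139 regions (5.68%), 89 with a more positive effect in trained rats and 50 with a more negative one, had an unadjusted p under 0.05 in edgeR, against a background of 3.3%. The part of this contrast within trained rats is one that the calls had selected on, and nothing is read from the list's share: the median interaction was 0.48 in regions listed through trained corticosterone rats alone, -0.21 in those listed through trained vehicle rats alone and 0.23 in those listed through both. The 139 were part of 480 such regions in all, against 241 of 810 without trained vehicle C and 92 of 374 without trained corticosterone C. The median standard error of a single region's interaction was 0.490 on the log2 scale, so that an interaction of that size at a single region was not detectable at this depth.

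The regions below had the smallest p for corticosterone on the list, and none passed after adjustment. At chr3:123209369-123209910, 541 bp wide, untrained vehicle A to D held 68.6, 76.4, 49.1 and 81.1 CPM and untrained corticosterone A to D 31.2, 38.6, 18.6 and 33.1 CPM. Trained vehicle A to D held 58.7, 87.6, 33.3 and 58.0 CPM and trained corticosterone A to D 63.8, 33.1, 33.3 and 56.9 CPM. In untrained rats all vehicle libraries lay above all corticosterone libraries, and in trained rats the groups overlapped. The log2 fold change was -1.14 with a standard error of 0.302 in untrained rats (edgeR, adjusted p = 1) and -0.44 with one of 0.300 in trained rats, and the average over training was -0.79 (edgeR, adjusted p = 0.84). The region had no call in any untrained library although untrained vehicle rats had the highest mean of the 4 groups, 68.8 ± 14.1 CPM.

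**Figure D5:**
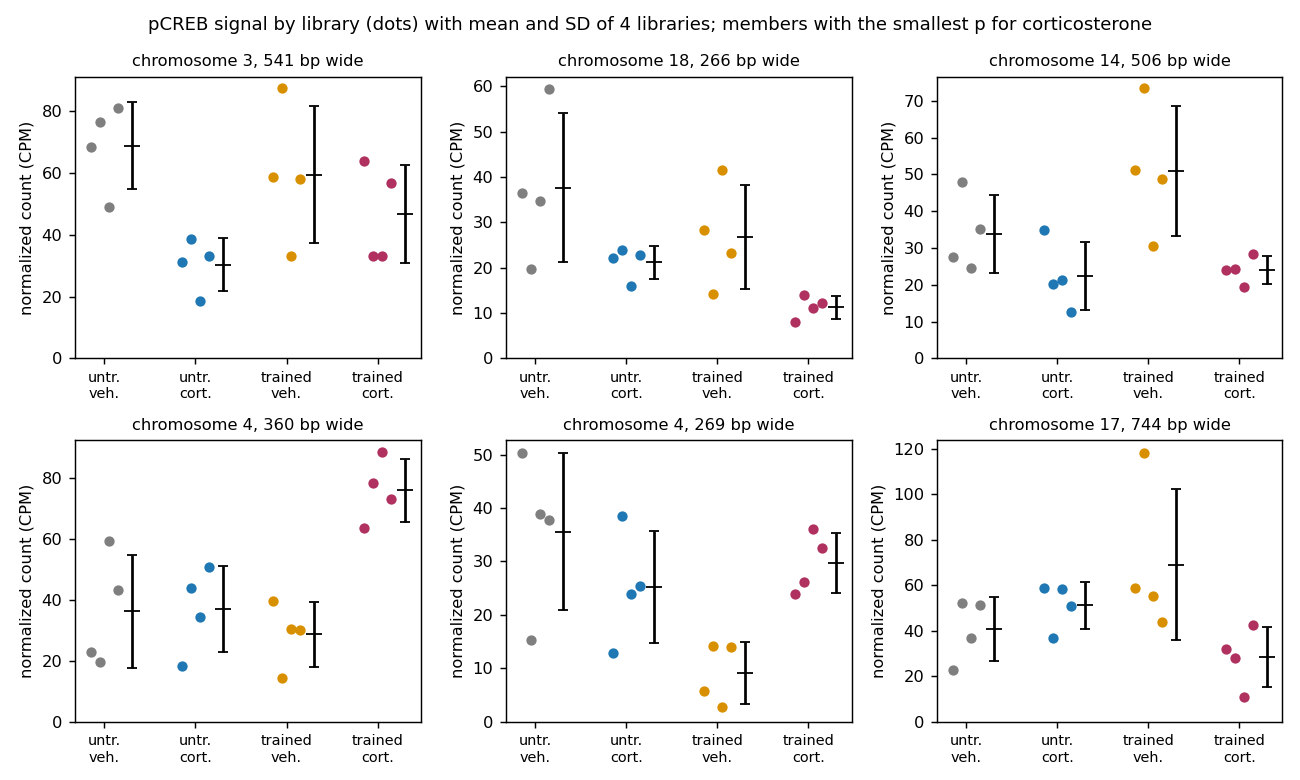
Normalized pCREB counts (CPM, y axis from 0) in each library (dots) of the 4 groups, with the mean and SD of 4 libraries, at 6 regions of the list with the smallest p for corticosterone; each panel gives the chromosome and width. At the 360 bp region on chromosome 4 the trained corticosterone libraries (63.8 to 88.7 CPM) lie above every other library, and none of the 6 passed after adjustment.

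The region chr4:6337302-6337662, 360 bp wide, had the smallest p for corticosterone in trained rats. Trained corticosterone A to D held 63.8, 78.4, 88.7 and 73.1 CPM against 39.8, 14.2, 30.5 and 30.2 CPM in trained vehicle A to D. Untrained vehicle A to D held 22.9, 19.6, 59.3 and 43.3 CPM and untrained corticosterone A to D 18.4, 44.1, 34.5 and 50.9 CPM. All 4 trained corticosterone libraries lay above all 12 others, including trained corticosterone A with its 8 reads. The log2 fold change in trained rats was 1.41, 2.65-fold, with a standard error of 0.324 (edgeR, adjusted p = 0.78), and in untrained rats it was -0.06. Its calls had brought it in through trained corticosterone rats alone, so that part of this difference was chosen.

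At chr4:539382-539651, 269 bp wide, the low group was trained vehicle. Untrained vehicle A to D held 50.3, 15.3, 38.9 and 37.8 CPM and untrained corticosterone A to D 12.9, 38.6, 23.9 and 25.4 CPM. Trained vehicle A to D held 5.68, 14.2, 2.78 and 13.9 CPM and trained corticosterone A to D 23.9, 26.1, 36.0 and 32.5 CPM. Trained vehicle libraries held 1 to 6 reads and lay below trained corticosterone and untrained vehicle libraries without overlap. The corticosterone effect was 1.69 with a standard error of 0.452 in trained rats (edgeR, adjusted p = 0.78) and the interaction 2.103 with one of 0.582 (edgeR, adjusted p = 0.999). It also had the lowest log2 fold change for training of the whole list, -0.79, so that a region listed only in trained rats held fewer reads in trained rats: its calls were 3 in untrained and 3 in trained libraries, the latter all in corticosterone rats.

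At 2 more regions trained vehicle rats had the lowest mean of the 4 groups. At chr1:102170748-102171156, 408 bp wide, the group means were 40.2 ± 4.72 CPM in untrained vehicle, 29.5 ± 6.33 in untrained corticosterone, 23.2 ± 3.93 in trained vehicle and 46.0 ± 6.78 in trained corticosterone rats. At chr1:188720522-188720909, 387 bp wide, they were 39.7 ± 9.78, 25.6 ± 14.9, 17.5 ± 3.73 and 35.2 ± 9.58 CPM in the same order. Corticosterone thus went with lower means in untrained and higher means in trained rats at both, with interactions of 1.39 and 1.67 (edgeR, adjusted p = 0.999 each). Both were listed through trained corticosterone rats alone.

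The opposite order was seen at chr17:32952915-32953659, 744 bp wide. Trained vehicle A to D held 58.7, 118, 55.5 and 44.1 CPM and trained corticosterone A to D 31.9, 27.9, 11.1 and 42.7 CPM. All trained vehicle libraries lay above all trained corticosterone libraries, and trained vehicle B was the highest. The log2 fold change was -1.26 with a standard error of 0.341 (edgeR, adjusted p = 0.78), and over fits that each left out 1 library it ran from -1.61 to -0.88.

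Lower signal under corticosterone in both states of training was seen at chr18:898266-898532 and chr14:2194684-2195190. The first, 266 bp wide, had 37.6 ± 16.4 and 21.2 ± 3.58 CPM in untrained vehicle and corticosterone rats and 26.9 ± 11.5 and 11.3 ± 2.51 CPM in trained ones. The second, 506 bp wide, had 33.8 ± 10.5 and 22.3 ± 9.25 CPM in untrained and 51.0 ± 17.6 and 24.0 ± 3.70 CPM in trained rats. The average log2 fold changes were -0.94 and -0.82 (edgeR, adjusted p = 0.84 each). At chr15:44111526-44111832 and chr10:105674447-105674760 the lower signal was in untrained rats, with log2 fold changes of -1.25 and -1.24 there (edgeR, adjusted p = 1 each) and 0.07 and 0.20 in trained rats.

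The highest and lowest log2 fold changes for training on the list lay in weak, narrow regions. The highest was at chr3:147377157-147377439, 282 bp wide, with 9.14, 2.18, 6.14 and 13.5 CPM in untrained vehicle A to D and 18.4, 12.9, 21.2 and 17.8 CPM in untrained corticosterone A to D. Trained vehicle A to D held 15.2, 14.2, 30.5 and 37.1 CPM and trained corticosterone A to D 15.95, 26.1, 30.5 and 26.4 CPM. These values stand for 1 to 16 reads a library, and the log2 fold change was 1.14. At chr15:58146063-58146362, 299 bp wide, untrained rats had 15.5 ± 7.90 CPM and trained rats 34.3 ± 9.48 CPM (SD, n = 8 each), a log2 fold change of 1.11. Among untrained libraries, vehicle C (26.6 CPM) and corticosterone C (26.6 CPM) overlapped the trained ones. Beside the region on chromosome 4 above, the lowest was chr9:98045608-98045868, 260 bp wide, where untrained rats had 24.1 ± 8.85 CPM and trained rats 16.1 ± 9.35 CPM.

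The list was spread over the genome. It held 21.4% of the pCREB-only regions of chromosome 4, the lowest share, and 27.7% of those of chromosome 15, the highest, and 21 of the 91 on chromosome X (23.1%). A GR region lay within 10 kb of 237 regions (9.38%, against 8.72% of all pCREB-only regions) and within 1 kb of 44. The median distance to the nearest GR region was 105 kb, against 99.5 kb for all pCREB-only regions. The next pCREB region of any kind lay within 10 kb of 574 regions (22.7%, against 23.2%).

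Regions of the list seldom lay beside each other. Of the 2528, 2439 had no other within 10 kb, 41 pairs did, and there were 2 larger clusters. The first held 3 regions within 2370 bp, chr11:86274708-86274998, chr11:86275573-86276521 and chr11:86276575-86277078, whose means in trained vehicle rats were 33.1 ± 5.96, 120 ± 65.6 and 64.8 ± 20.1 CPM and in untrained vehicle rats 26.8 ± 7.41, 101.0 ± 21.1 and 35.8 ± 17.9 CPM. The trained vehicle mean was the highest of the 4 groups in all 3. All 3 were listed through trained vehicle rats alone, so that this order describes the calls. The second held 4 regions, chr20:4390040-4405020, of which 3 were tested. Trained vehicle rats had the highest mean at chr20:4390040-4390819 (105 ± 44.5 CPM, against 69.6 ± 27.8 CPM in untrained vehicle rats) and the lowest at chr20:4404709-4405020 (28.6 ± 3.07 CPM, against 46.8 ± 17.8 CPM), so that the order of the groups differed between neighbouring regions.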

How the data were processed

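The authors deposited raw read counts per region and library, without normalization, with the names of the peaks behind each region. The submitters' processing notes name HTSeq 0.6.1-1, bedtools 2.26.0, MACS2 2.1.1.20160309 and BWA 0.7.10, with genome build rn6 and no settings. Libraries were amplified with 15 rounds of PCR, per the labels' protocols. Coordinates are printed as deposited.

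Calls were counted from the peak names, and an overlap of 1 bp with a GR region removed a pCREB region. Counts of the 16 pCREB libraries were fitted in R 4.3.3 by edgeR 4.0.16 (quasi-likelihood with robust dispersion, TMM, filterByExpr by group, 1 model with 4 groups and no covariates, Benjamini-Hochberg adjustment over 14553 regions, called under an adjusted p of 0.05). The biological coefficient of variation was 0.255. A standard error is the log2 fold change divided by the root of F. The model was also run on simulated data, whose outcome is not given here and is not used. Alternatives were total-count scaling, RLE factors, DESeq2 1.42.0, no filter, a replicate block and leaving out libraries. Tables and figures were made with Python 3.11.15, pandas 2.3.3 and matplotlib 3.10.9.

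The regions and the naming rule were chosen with earlier results of these data known. The rule took the 10 regions with the largest surplus of trained calls, the 6 with the highest mean CPM, the 3 with the smallest p in each corticosterone contrast where none passed, and the 2 lowest and 2 highest training fold changes. Cluster regions were chosen by position. The lists of genes and markers, motifs and sequences need an rn6 genome and annotation, which were not used here, so that no region is given a gene. Input libraries were not used. Within each group, no pair of libraries was a duplicate (24 pairs, lowest chi-square per degree of freedom 1.30). Replicates are separate pools of rats.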

Additional observations from a re-analysis of the deposited data

Results flagged for a closer look

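At chr1:188720522-188720909, untrained corticosterone C held 47.79 CPM while the other 3 libraries of its group held 16.5 to 20.2 CPM, a gap of 0.883 of the group's whole range. This was the only library so far from its group among 140 groups of 4 libraries checked, and chance alone marks about 1 in 20 groups. The region was named for its interaction, 1.67 with all libraries, which ran from 1.495 to 2.096 over fits that each left out 1 library and passed in none.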

How the results depend on the processing

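The number of regions on the list followed the rule and single libraries. It was 203 when all 4 libraries of a trained group had to be called, 850 with fewer than 2 calls in each untrained group, and 134 with no untrained call. Ignoring the calls of 1 library in turn gave 1268 (without trained vehicle D) to 3854 regions (without untrained corticosterone B), with 1381 without trained vehicle A and 1582 without trained vehicle B. Choices added after seeing the data concern untrained vehicle A and trained corticosterone A. Ignoring their calls gave 2540 regions, and also accepting 2 of 3 calls in their groups gave 1716. No GR region within 1 kb left 2484.

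No region passed for corticosterone or the interaction under any alternative run, among them an adjusted p of 0.1, no filter on low counts, DESeq2, leaving out both libraries with few calls and leaving out the mitochondrial regions (the last 2 chosen after seeing the data). For training, RLE factors gave 1 region called, DESeq2 gave 2, and leaving out single libraries gave 0 to 3, the 3 without trained vehicle A. None was called by the other alternatives. Regions of the list with every trained above every untrained library numbered 0 to 2 when 1 library was left out (1 without untrained corticosterone A, 2 without trained vehicle B) and 1 without both libraries with few calls. With all libraries there were 0 on the list and 0 among the 14553 tested regions. The shares of all tested regions under the alternatives are not given here. These counts are of the contrast that chose the list, and nothing is read from them. The causes were not tested. Over the alternatives, the training fold changes of 4 named wide regions changed sign: chr7:11754154-11755302 (-0.17 to 0.23), chr3:72118105-72119382 (-0.08 to 0.23), chr6:99400432-99402375 (-0.05 to 0.33) and chr1:221158647-221160068 (-0.01 to 0.31). The others of the 32 values of named regions that were followed over the alternatives kept their sign. Further values given for named regions, among them those of the cluster regions, were not followed.

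With the letter as a replicate block, 0 regions passed in each contrast, and the median log2 fold change of the list was 0.13 for training and -0.06 for corticosterone, averaged. The block changed no call. Libraries of different groups with the same letter correlated at -0.337 to 0.508 (median 0.116, 13 of 24 pairs above 0.1). Those with different letters correlated at a median of -0.06 (72 pairs), and 8 of 16 libraries correlated best with their own letter. The same-letter median was thus the higher one. These values do not decide whether letters mark pairs, and the block is given as an alternative only.

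Reads at single regions were few. The median region of the list held 4 to 20 reads a library, 79 regions were too weak to test, and trained corticosterone A was the library with the median of 4.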
